A study of Mus musculus with 10 samples.

Results

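The step from day 5 to day 7 of reprogramming was examined in 4 of the 10 bulk RNA-seq libraries of the series, namely the day 5 and day 7 libraries of the OKS + DsRed arm and of the OKS + FoxO6 arm. The libraries were chosen by arm and day as the labels give them, and no measured value entered the choice. All libraries came from mouse embryonic fibroblasts (MEFs) of strain CBA/CaJ X C57BL/6J, isolated from E13.5 embryos and carrying an Oct4-GFP reporter. In both arms the MEFs received retroviruses for Oct4, Klf4 and Sox2 (OKS) and were then kept in iCD1, a culture medium for reprogramming. The DsRed arm also received the red fluorescent protein DsRed as the control, and the FoxO6 arm also received the forkhead transcription factor FoxO6. Each arm and day had 1 library, so the 2 arms are parallel courses with different added genes and not replicates of a culture. No source says whether the days of an arm came from the same infected culture, and the p-values therefore measure only the spread between these libraries. The comparison asks which transcripts went up or down in both arms late in the course, and not how the arms differed.

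During reprogramming, fibroblasts lose their mesenchymal programme, take on junctions and keratins of epithelial cells, and in a small share of cells switch on the endogenous pluripotency network. Nanog, a homeodomain factor, is a late member of that network and marks its activation. Cells on this route also move towards glycolysis, and interferon-stimulated genes are the transcripts that antiviral cytokines induce. In bulk RNA, fewer cells of a type and less RNA per cell cannot be told apart.

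The libraries held 1354173 and 1862730 expected counts at days 5 and 7 of the DsRed arm, and 2055009 and 1558086 in the FoxO6 arm. This is shallow for bulk RNA-seq, so genes with few counts had a wide error. The fibroblast markers Col1a2, Col1a1, Thy1, Twist1 and Prrx1 were present in all 4 libraries, with Col1a2 between 261.51 and 1119.04 TPM, the length-scaled share of transcripts, while Twist2 and Fap were too low to be tested. None of these markers passed the test between the days.

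The FoxO6 day 7 library stood apart in transcript length among the 4 libraries. Its TPM-weighted mean transcript length was 1804 nt, the lowest of the 10 libraries, against 2095 nt at day 5 of the same arm. The DsRed arm had 2044 nt at day 5 and 1983 nt at day 7. When the genes were split into 10 equal bins by length, the median day 7 minus day 5 difference in the FoxO6 arm went from 0.49 (log2 CPM, the counts scaled to library size) in the shortest bin, of 866 nt, to -0.55 in the longest, of 6670 nt. In the DsRed arm the same bins went from 0.09 to -0.03. The trend from the shortest to the longest bin was thus -1.04 in the FoxO6 arm and -0.12 in the DsRed arm, and short transcripts ran high and long ones low in the FoxO6 day 7 library. The cause of this length pattern was not tested. A fit with a length offset for each library is therefore given beside the results that it changed. In the difference between the longest and the shortest of the 10 bins, set against the mean of the 10 libraries, FoxO6 day 7 stood at -0.76 and DsRed day 0, which is outside the step, at -0.58, while the other 8 libraries lay between 0.03 and 0.29.

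**Figure D1:**
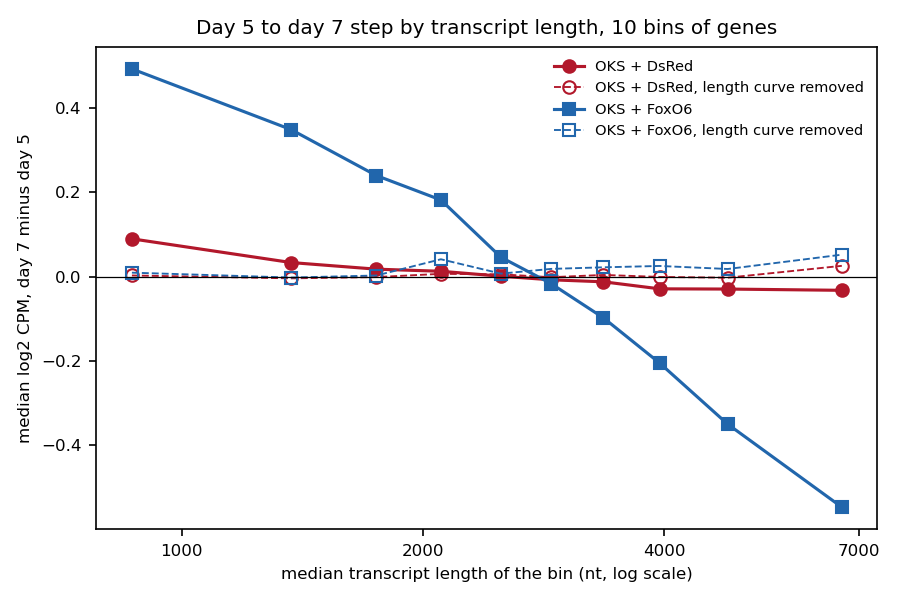
Median difference in log2 CPM between day 7 and day 5 (vertical axis) in 10 equal bins of transcript length in nt (horizontal axis), for the OKS + DsRed arm and the OKS + FoxO6 arm. The FoxO6 arm falls from 0.49 in the shortest bin to -0.55 in the longest, while the DsRed arm stays between 0.09 and -0.03 at these ends.

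Few genes passed the threshold in common over the step. With edgeR's quasi-likelihood test, arm as a block and Benjamini-Hochberg adjustment over 11530 genes, 39 genes had an adjusted p under 0.05. Of these, 27 were higher at day 7 in both arms (0.234% of the genes tested), 11 were lower in both arms (0.0954%), and 1 moved in opposite directions. The balance between higher and lower depended on the scaling, with 27 against 11 under TMM, 51 against 43 under RLE size factors and 41 against 29 when only library totals were used. DESeq2 on the same libraries kept 13 of the 39 calls, gave 15 no adjusted p and put 11 above the threshold. Those with no adjusted p were Nanog, Krt8, Spint1, Sfn, Sprr2b, Gpx2, Rundc3a, Cyp2b23, Mylpf, Irs1 and 5 gene models that share sequence with another gene. Those above the threshold were Epcam, Alpl and Strip2 (each adjusted p = 0.0525), Irgm2 (0.0777), Syne1 and D130040H23Rik (each 0.0906), Sdpr (0.0918), Slit2 (0.0959), Gm26870 (0.113), Sez6 (0.945) and Gm10925 (0.999). By any amount, 3331 genes were higher in both arms (28.9%) and 3144 lower in both (27.3%). A fold of at least 2 in each arm, with no test, was found for 62 genes upward (0.561% of 11053 genes with at least 10 counts in a library of each arm) and 42 downward (0.38%).

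The day 7 levels of the genes that rose lay above the day 5 levels across arms for 17 of the 27, on log2 CPM scaled over the 4 libraries. Of these 17, Gm20388, Gm20458, Gm20716, Gm28437, Rpl36a-ps2 and mt-Nd3 share sequence with another gene, and their calls were lost when the locus was summed. The days of Nanog, Epcam, Krt8, Slc2a3, Ak4, Igfbp2, Sez6, Gm37697, Gm38312 and Mt2 overlapped. Mt2 lay at the border, at 180 CPM in DsRed day 5 and 181 CPM in FoxO6 day 7 when scaled over all 10 libraries, and would make 18 on that scale. Both day 7 libraries were above both day 5 libraries for 1681 genes (14.6% of all tested), all of them among the 3331 higher in both arms. Both were below for 1580 genes (13.7%), all of them among the 3144 lower in both arms. A call requires the same direction in both arms, so it favours days that do not overlap, and these counts are no support for the calls. Among the genes that fell, 5 of 11 had days that did not overlap, namely Irs1, Rnf213, Syne1, Galnt2 and Lars2. The call of Galnt2 was lost when it was summed with the gene that shares its sequence. The days of Gm26870, Strip2, Sdpr, Gm4070, Irgm2 and Slit2 overlapped. Across the 5 days of the course, day 7 was the highest day in both arms for 21 of the 27 genes that rose, and day 7 was the lowest day in both arms for 5 of the 11 that fell. Without the genes that share sequence with another gene, these were 19 of 21 and 4 of 9. The call itself favours such a course. Among the genes that were higher at day 7 in both arms by any amount, day 7 was the highest of the 5 days in 33.3%, and among those lower by any amount it was the lowest in 27.8%.

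**Figure D2:**
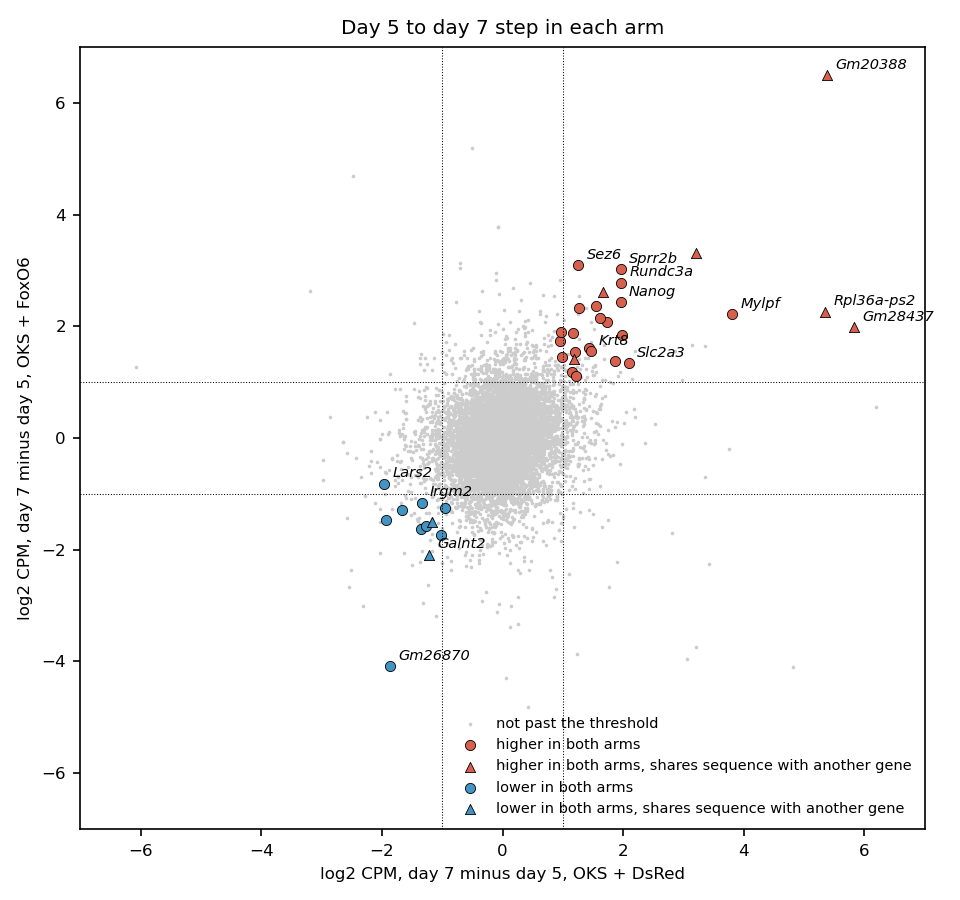
Day 7 minus day 5 difference in log2 CPM in the OKS + DsRed arm (horizontal axis) and in the OKS + FoxO6 arm (vertical axis), 1 point per gene tested, with genes that rose in red, genes that fell in blue, triangles for genes that share sequence with another gene, dotted lines at a fold of 2, and 2 genes outside the plotted range of 7 left out. The 27 genes that rose lie in the upper right and the 11 that fell in the lower left.

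The transduced factors did not pass the test over the step. Foxo6 checked the labels, with 2.29 and 0.81 TPM at days 5 and 7 of the DsRed arm, from 4 and 2 counts, and 1266.64 and 762.11 TPM in the FoxO6 arm. Its levels therefore matched the added gene of each arm. Pou5f1, which encodes Oct4, was at 3720.23 and 3941.35 TPM in the DsRed arm and at 7070.54 and 5378.7 TPM in the FoxO6 arm, with a log2 fold change of 0.0044 (adjusted p = 0.997). Klf4 was between 2168.44 and 3516.81 TPM and Sox2 between 1952.21 and 3043.21 TPM, with adjusted p = 0.773 and 0.79. Reads from the retroviral cDNAs and from the endogenous genes were not separated in these counts.

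Nanog rose in both arms and was the member of the pluripotency network that passed the test. In the DsRed arm it was listed at 0 TPM on days 0 and 1, then at 0.71, 14.94 and 58.35 TPM on days 3, 5 and 7. In the FoxO6 arm it was listed at 0 TPM on days 0, 1 and 3, then at 1.02 and 8.31 TPM on days 5 and 7. Day 7 was the highest day of each arm, but the FoxO6 day 7 level lay under the DsRed day 5 level, so the days overlapped across arms. The step was 2.30 ± 0.43 (log2 fold change ± SE, adjusted p = 0.0224), or 4.94-fold, on 22 and 122 counts in the DsRed arm and 2 and 16 in the FoxO6 arm. Nanog lies on chromosome 6 (chr6:122707489-122714633, forward strand, GRCm38).

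The Nanog promoter is shown because Nanog is the called member of the network, and its joined POU and SOX letters are known, so that they were searched for here and their presence is no finding. The 300 bases at chr6:122707239-122707538 on the forward strand (RefSeq, GRCm38.p6) run from 250 bases before to 50 bases after the start site. Capitals mark TTTGCAT, the letters searched for POU factors such as Oct4, and ACAATG, those searched for SOX factors. Both motifs were searched on both strands.
Nanog promoter: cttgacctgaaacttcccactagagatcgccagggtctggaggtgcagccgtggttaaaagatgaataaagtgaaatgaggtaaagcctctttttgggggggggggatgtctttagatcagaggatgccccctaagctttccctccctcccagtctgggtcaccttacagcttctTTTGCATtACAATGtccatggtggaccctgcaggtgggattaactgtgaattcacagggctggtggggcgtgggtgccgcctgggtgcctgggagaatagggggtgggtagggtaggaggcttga
TTTGCAT began at -75 and ACAATG at -67, with 1 base between them. TTTGCAT was found in 4.63% of 32817 mouse promoters of this length and ACAATG in 12.6%, and this arrangement of both in 2 of the 32817 (0.00609%), which are the overlapping promoters listed for Nanog itself. A match describes the letters in the window and is not a measured site.

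Most of the tested pluripotency genes were higher in both arms, but no member besides Nanog passed the test. Of 40 listed genes, 23 were tested, Nanog included, and 13 of them were higher in both arms (56.5%, against 28.9% over all genes), 3 were lower in both and 7 were opposite. The median log2 fold change over the 23 was 0.72, against 0.01 over all genes, with medians of 0.50 in the DsRed arm and 0.55 in the FoxO6 arm. The summed level of the list was 1053 and 1523 TPM in the DsRed arm and 699.4 and 693.8 TPM in the FoxO6 arm. Nr5a2, a nuclear receptor that can stand in for Oct4 in reprogramming, came closest. It was at 16.12 and 42.52 TPM in the DsRed arm and at 2.29 and 5.79 TPM in the FoxO6 arm, with a log2 fold change of 1.81 (adjusted p = 0.0596). Tdh, a threonine dehydrogenase of mouse pluripotent cells, had a log2 fold change of 0.75 (adjusted p = 0.282) and Gdf3, a TGF beta family ligand, one of 1.03 (adjusted p = 0.33). Alpl, the tissue-nonspecific alkaline phosphatase used as a stain for pluripotent colonies, was outside the list and rose. It was at 92.54 and 174.02 TPM in the DsRed arm and at 37.71 and 109.14 TPM in the FoxO6 arm, a step of 1.35 ± 0.25 (adjusted p = 0.0221), and its days did not overlap.

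**Figure D3:**
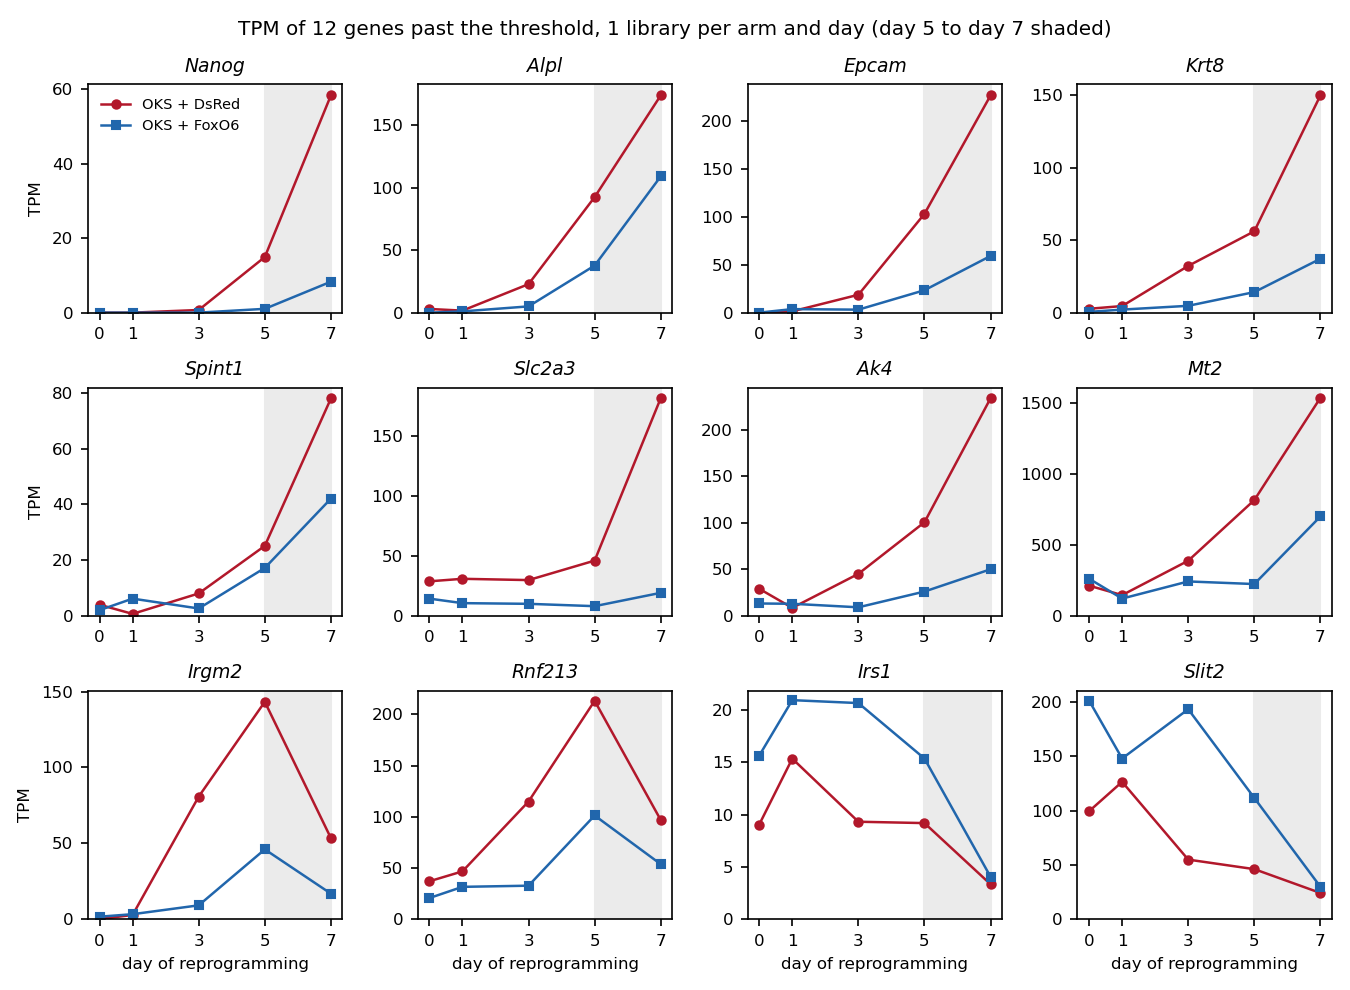
TPM (vertical axes, linear, scaled per gene) against day 0, 1, 3, 5 and 7 (horizontal axes) for 12 genes that passed the threshold, with 1 point per library, 1 line per arm and the day 5 to day 7 step shaded. Nanog climbs to 58.35 TPM in the OKS + DsRed arm and to 8.31 TPM in the OKS + FoxO6 arm at day 7.

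By number of calls in edgeR's test the epithelial list came first, with 3 of 26 tested, against 0.234% of all genes. The keratinocyte list held 1 of 3 tested. DESeq2 called none of the 3 epithelial genes, with Epcam at an adjusted p of 0.0525 and none given for Krt8 and Spint1. It kept Mt2 (0.0188) and Mt1 (0.0436) of the oxidative stress list. Epcam, the epithelial cell adhesion molecule, was at 103.28 and 227.08 TPM at days 5 and 7 of the DsRed arm and at 23.45 and 59.25 TPM in the FoxO6 arm. Its step was 1.37 ± 0.25 (log2, adjusted p = 0.019). Krt8, a keratin of simple epithelia, was at 56.09 and 149.79 TPM in the DsRed arm and at 14.16 and 37.14 TPM in the FoxO6 arm, a step of 1.55 ± 0.28 (adjusted p = 0.019). For both genes the FoxO6 day 7 level was below the DsRed day 5 level, so the days overlapped although each arm went up. Spint1, a membrane-bound inhibitor of serine proteases such as matriptase, was at 25.14 and 78.07 TPM in the DsRed arm and at 17.21 and 42.11 TPM in the FoxO6 arm. It rose by 1.68 ± 0.30 (adjusted p = 0.019), and its day 7 levels were above its day 5 levels in both arms.

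Of 36 epithelial genes, 26 were tested. These 3 passed the test, 18 of the 26 were higher in both arms (69.2%, against 28.9% over all genes), 1 was lower in both and 7 were opposite. The median log2 fold change was 0.93, with 0.82 in the DsRed arm and 1.11 in the FoxO6 arm, and 0.79 with the length offset. Cdh1, which encodes E-cadherin, was at 106.26 and 200.7 TPM in the DsRed arm and at 14.01 and 28.88 TPM in the FoxO6 arm, with adjusted p = 0.055, and it passed with the length offset (adjusted p = 0.0223). The tight-junction gene Cldn4 had a log2 fold change of 2.82 (adjusted p = 0.0682), on 3.33 and 31.06 TPM in the DsRed arm and 1.69 and 6.36 TPM in the FoxO6 arm. The keratin Krt19 had one of 1.87 (adjusted p = 0.0768). The desmosome gene Dsp, by contrast, had a log2 fold change of 0.01 (adjusted p = 0.994).

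Sfn and Sprr2b, both known from stratified epithelia, rose outside the epithelial list. Sfn encodes the protein 14-3-3 sigma and was at 19.75 and 60.97 TPM in the DsRed arm and at 8.91 and 37.41 TPM in the FoxO6 arm. Its step was 1.97 ± 0.36 (adjusted p = 0.0209). On day 0 it was at 52.87 TPM in the DsRed arm and 45.68 TPM in the FoxO6 arm, so by day 7 it had come back near the level of the starting cells. Sprr2b, a small proline-rich protein of the cornified envelope, was at 12.12 and 54.12 TPM in the DsRed arm and at 2.74 and 38.6 TPM in the FoxO6 arm, a step of 2.90 ± 0.60 (adjusted p = 0.0437). It passed the filter on counts only through its day 7 libraries, with 38 and 25 counts, against 6 and 2 at day 5. It lost the call with the length offset, where its log2 fold change was 2.63 (adjusted p = 0.104). The days of both genes did not overlap. Over all genes, 28.9% were higher in both arms. Of 12 listed keratinocyte markers, 3 were tested, all higher in both arms, of which Sfn itself is the one that passed. The summed level of the list was 279 and 430.4 TPM in the DsRed arm and 50.4 and 129.9 TPM in the FoxO6 arm. Of 16 listed trophoblast markers, 5 were tested and 3 were higher in both arms, with Hand1, Plac1, Tpbpa and Prl3d1 at 0 in all 4 libraries. Among the 3 higher ones, Peg10, a retrotransposon-derived gene of placenta, had adjusted p = 0.141, and 0.0168 with the length offset. The trophoblast list had a summed level of 209.7 and 402.4 TPM in the DsRed arm and 96.5 and 107.4 TPM in the FoxO6 arm. The part of such cells in the epithelial rise was not tested.

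The mesenchymal genes did not move as a block in the opposite direction. Of 34 listed, 27 were tested and none passed edgeR's test. Of the 27, 5 were higher in both arms (18.5%, against 28.9% over all genes) and 9 lower in both (33.3%, against 27.3%). The other 13 were opposite, and the median log2 fold change was -0.18. Zeb1, a repressor of E-cadherin, had a log2 fold change of -0.78 (adjusted p = 0.424) and Loxl2, a collagen-modifying oxidase, one of -0.98 (adjusted p = 0.356). Of 18 collagen genes, 15 were tested and none passed. Their median was -0.08, and 0.20 with the length offset, so its sign turned, and their transcripts are long, with a median of 5930 nt.

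Slc2a3 and Ak4 rose, and no other member of the glycolysis and hypoxia lists passed the test. Slc2a3 encodes the glucose transporter GLUT3. It was at 46.06 and 181.5 TPM in the DsRed arm and at 8.08 and 19.2 TPM in the FoxO6 arm, a step of 1.83 ± 0.27 (adjusted p = 0.00533), or 3.57-fold. On counts it went from 119 to 696 in the DsRed arm and from 34 to 67 in the FoxO6 arm, where day 0 had 64, and the FoxO6 day 7 level stayed below the DsRed day 5 level. Slc2a3 lies 13175 bases from Nanog on chromosome 6 (chr6:122727809-122801640, reverse strand). Ak4, a mitochondrial adenylate kinase and a target of the hypoxia-inducible factors, was at 100.65 and 233.99 TPM in the DsRed arm and at 26.15 and 50.1 TPM in the FoxO6 arm, a step of 1.18 ± 0.23 (adjusted p = 0.0244).

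Of 25 glycolysis genes tested, 16 were higher in both arms (64%, against 28.9% over all genes) and 2 lower in both, with a median log2 fold change of 0.33. In the FoxO6 arm the median difference was 0.30 on log2 CPM, 0.05 on log2(TPM + 1) and 0.06 after the length curve was removed. Slc2a1, the glucose transporter GLUT1, had a log2 fold change of 1.05 (adjusted p = 0.13) and Pdk1, which restrains entry of pyruvate into mitochondria, one of 1.17 (adjusted p = 0.195). Of 18 hypoxia genes tested, 11 were higher in both arms (61.1%) and 2 lower in both, with a median of 0.35. In the FoxO6 arm the median turned from 0.20 on log2 CPM to -0.17 on log2(TPM + 1), and the summed level went from 669.1 to 571.3 TPM, against 839.6 and 1280 TPM in the DsRed arm. Egln3, an oxygen-sensing prolyl hydroxylase, was at 31.43 and 126.1 TPM in the DsRed arm but at 4.93 and 6.01 TPM in the FoxO6 arm (adjusted p = 0.0613). Vegfa, an angiogenic ligand, had a log2 fold change of 1.34 (adjusted p = 0.141).

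The neighbouring metallothionein genes Mt1 and Mt2, whose small proteins bind zinc and copper, rose together. Mt2 was at 817.55 and 1539.88 TPM at days 5 and 7 of the DsRed arm and at 224.62 and 701.87 TPM in the FoxO6 arm, a step of 1.42 ± 0.26 (adjusted p = 0.019). Mt1 was at 610.18 and 1362.56 TPM in the DsRed arm and at 466.24 and 849.13 TPM in the FoxO6 arm, a step of 1.17 ± 0.22 (adjusted p = 0.0226). The days of Mt1 did not overlap on CPM or TPM, while the FoxO6 day 7 level of Mt2 was close to its DsRed day 5 level on CPM and below it on TPM. Mt1 lost the call with the length offset, where its log2 fold change was 0.83 (adjusted p = 0.119). An antisense gene model, Gm45774, covers 73.5% of the exon bases of Mt2, and no source states a strand setting, so reads of that model and of Mt2 cannot be told apart. The genes lie 5513 bases apart on chromosome 8 (chr8:94172664-94173568 for Mt2 and chr8:94179082-94180327 for Mt1, both forward).

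The promoters of this pair are shown because metal-responsive transcription is known for both genes through repeats of a short element. Capitals mark TGCNCNC, the core of the metal response element, searched on both strands in the 300 bases around each start site (RefSeq, GRCm38.p6, forward strand, chr8:94178839-94179138 for Mt1 and chr8:94172368-94172667 for Mt2).
Mt1 promoter: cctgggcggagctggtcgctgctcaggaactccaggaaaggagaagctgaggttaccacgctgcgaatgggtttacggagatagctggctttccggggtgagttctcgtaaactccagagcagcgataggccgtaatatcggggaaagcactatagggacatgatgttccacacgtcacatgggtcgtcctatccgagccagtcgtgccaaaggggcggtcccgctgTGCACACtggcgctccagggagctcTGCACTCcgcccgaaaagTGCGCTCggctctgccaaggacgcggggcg
Mt2 promoter: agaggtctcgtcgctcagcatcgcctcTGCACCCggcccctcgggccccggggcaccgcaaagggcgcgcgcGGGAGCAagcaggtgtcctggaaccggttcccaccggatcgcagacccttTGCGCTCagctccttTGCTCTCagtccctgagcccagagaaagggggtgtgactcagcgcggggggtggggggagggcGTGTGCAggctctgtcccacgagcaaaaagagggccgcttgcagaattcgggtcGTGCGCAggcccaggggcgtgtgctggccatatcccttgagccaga
Mt1 held 3 matches and Mt2 held 6. At least 3 matches were found in 7.1% and at least 6 in 0.225% of the 32817 promoters, and 51% held at least 1. No binding or metal level was measured here.

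Of 22 oxidative stress genes, 21 were tested, and Mt1 and Mt2 were those that passed. Of the 21, 10 were higher in both arms, 1 was lower in both and 10 were opposite, with a median log2 fold change of 0.20. Over all genes 0.234% were called higher and 28.9% were higher in both arms. Gsta4, a glutathione transferase, had a log2 fold change of 0.81 (adjusted p = 0.201). Gpx2, a glutathione peroxidase of epithelia, rose outside this list. It was at 56.6 and 134 TPM in the DsRed arm and at 15.72 and 74.36 TPM in the FoxO6 arm, a step of 1.81 ± 0.35 (adjusted p = 0.0226), with days that did not overlap. It missed the threshold with the length offset, where its log2 fold change was 1.58 (adjusted p = 0.0544).

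Several other genes rose from low levels, some of them known mainly from neurons or muscle. Rundc3a, a RUN domain protein of brain, was at 11.54 and 51.7 TPM in the DsRed arm and at 1.99 and 17.56 TPM in the FoxO6 arm, a step of 2.51 ± 0.45 (adjusted p = 0.019). Grin1, the obligate subunit of NMDA receptors, was at 31.28 and 80.77 TPM in the DsRed arm and at 11.76 and 34.63 TPM in the FoxO6 arm, a step of 1.54 ± 0.25 (adjusted p = 0.0107). The days of both genes did not overlap. Sez6, a seizure-related membrane protein of neurons, was at 37.42 and 80.21 TPM in the DsRed arm and at 2.32 and 15.5 TPM in the FoxO6 arm, a step of 1.89 ± 0.36 (adjusted p = 0.0226), which missed the threshold with the length offset at the same size (1.89, adjusted p = 0.0553). Of 20 listed ectoderm and neural genes, 10 were tested and none passed edgeR's test.

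Igfbp2, a secreted binding protein of insulin-like growth factors, was at 77.33 and 296.41 TPM in the DsRed arm and at 5.31 and 16.13 TPM in the FoxO6 arm, a step of 2.05 ± 0.32 (adjusted p = 0.00804). Its highest day in the FoxO6 arm was day 0, so the rise there was from a low reached on the way. Cyp2b23, a cytochrome P450, was at 26.76 and 87.46 TPM in the DsRed arm and at 6.5 and 26.24 TPM in the FoxO6 arm, a step of 1.96 ± 0.32 (adjusted p = 0.0107). Mylpf, the regulatory myosin light chain of fast skeletal muscle, went from 2 to 66 counts in the DsRed arm and from 1 to 10 in the FoxO6 arm, with a log2 fold change of 4.23 ± 0.69 (adjusted p = 0.0107). Mylpf passed the filter on counts only through its day 7 libraries, so its adjusted p is weak support for a rise. Of 21 listed muscle genes, 2 were tested and 5 were at 0 in all 4 libraries, while the muscle actin Acta1 was at 2.11 and 3.81 TPM in the DsRed arm and at 5.57 and 235.53 TPM in the FoxO6 arm. The part of muscle-like cells in the rise of Mylpf was not tested. The remaining genes that rose and lay under the limit of 50% shared sequence for summing were the uncharacterised gene models Gm37697 (adjusted p = 0.00533) and Gm38312 (adjusted p = 0.0226) and the zinc finger gene D130040H23Rik (adjusted p = 0.0209).

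Rnf213, Irgm2 and Gm4070 fell, of which Irgm2 belongs to the interferon lists and the other two do not. Rnf213, a very large ubiquitin ligase induced by interferon, was at 213.29 and 96.77 TPM at days 5 and 7 of the DsRed arm and at 101.23 and 53.64 TPM in the FoxO6 arm. Its step was -1.42 ± 0.23 (adjusted p = 0.0107). Irgm2, an immunity-related GTPase that acts on the membranes around intracellular pathogens, was at 143.22 and 53.35 TPM in the DsRed arm and at 45.95 and 16.77 TPM in the FoxO6 arm, a step of -1.28 ± 0.24 (adjusted p = 0.0224). Gm4070, a gene model whose 50-base stretches are shared to 95% with the interferon-inducible GTPase Gvin1, had a step of -1.31 ± 0.25 (adjusted p = 0.0226). Its call was lost when it was summed with Gvin1 (-0.93, adjusted p = 0.172). All 3 were at their highest on day 5 in both arms, so the fall followed a peak.

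The wider interferon lists held 1 call. Their medians fell further in the DsRed arm, a difference between the arms that was not tested. Of 36 genes of the interferon gamma response and antigen presentation, 31 were tested, and Irgm2 was the one that fell. Of the 31, 1 was higher in both arms, 12 were lower in both (38.7%, against 27.3% over all genes) and 18 were opposite, and the median difference was -0.45 in the DsRed arm and 0.16 in the FoxO6 arm. The summed level of the list went from 15510 to 11730 TPM in the DsRed arm and from 3693 to 5075 TPM in the FoxO6 arm. Gbp7, a guanylate-binding protein, had a log2 fold change of -1.10 (adjusted p = 0.0795). Of 32 type I interferon genes, 31 were tested and none passed edgeR's test, with 2 higher in both arms and 16 lower in both (51.6%), and a median log2 fold change of -0.59. Cmpk2, a mitochondrial nucleotide kinase, had a log2 fold change of -1.51 (adjusted p = 0.0768), Stat2 one of -1.07 (adjusted p = 0.0785) and Eif2ak2, the kinase PKR that senses double-stranded RNA, one of -1.02 (adjusted p = 0.0851). The type I median was -1.03 in the DsRed arm and -0.13 in the FoxO6 arm. Of 16 macrophage markers, 2 were tested and Fcer1g, C1qa, C1qb, C1qc and Cx3cr1 were at 0 in all 4 libraries, while the summed level of the list was 98.8 and 66.2 TPM in the DsRed arm and 55.9 TPM on both days of the FoxO6 arm.

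**Figure D4:**
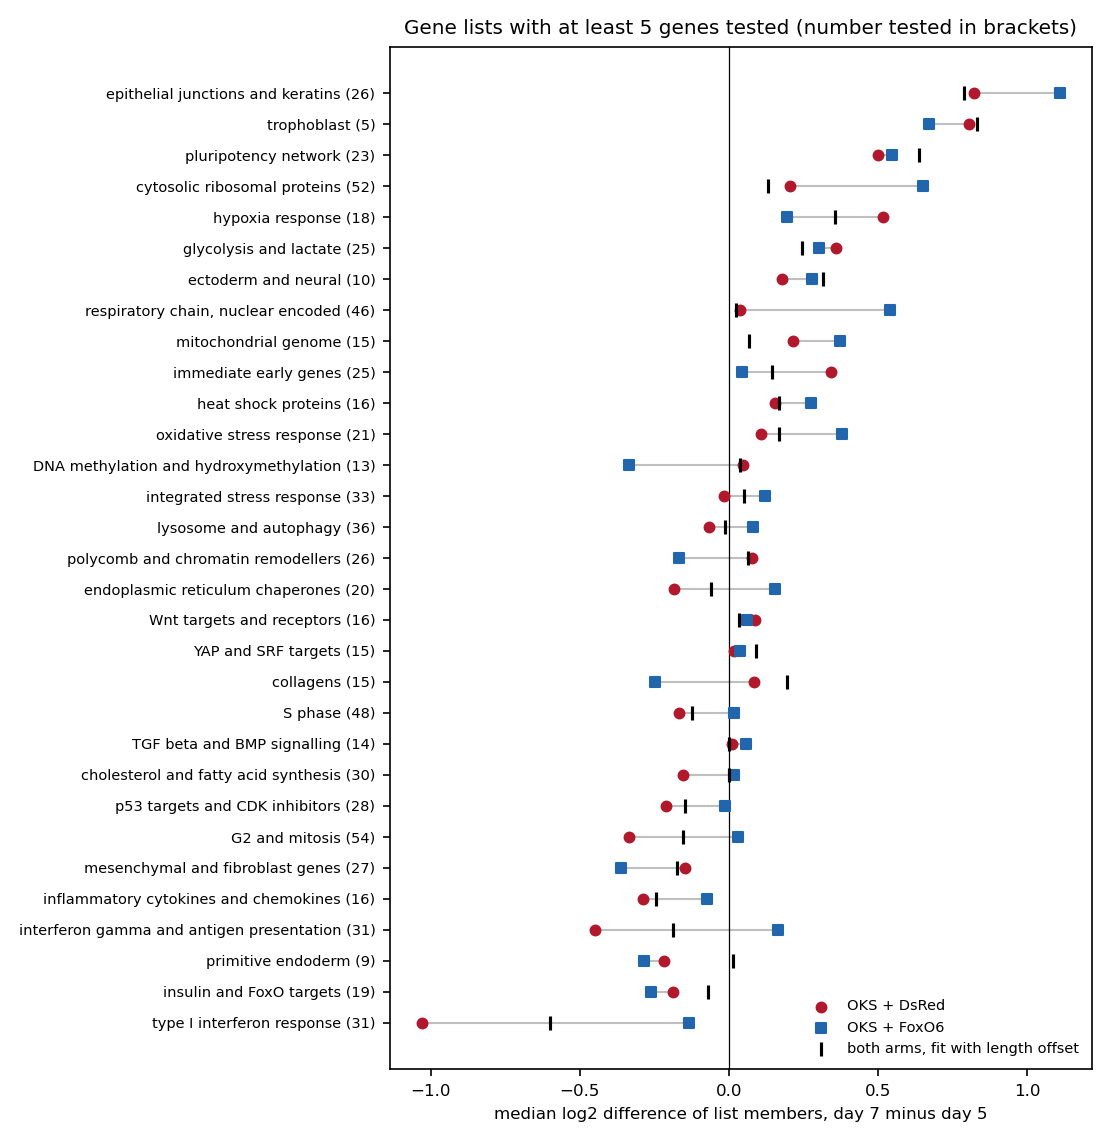
Median day 7 minus day 5 difference over the tested members of each gene list, in log2 CPM, for the OKS + DsRed arm (circles) and the OKS + FoxO6 arm (squares), with a tick for the median of the fit with the length offset and the number of genes tested in brackets. The epithelial list lies at 0.82 and 1.11, and the type I interferon list at -1.03 and -0.13.

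Irs1, a docking protein of the insulin receptor, also fell. It was at 9.19 and 3.33 TPM in the DsRed arm and at 15.37 and 4.04 TPM in the FoxO6 arm, a step of -1.55 ± 0.31 (adjusted p = 0.0357), and its days did not overlap. The call was lost with the length offset, where the log2 fold change was -1.13 (adjusted p = 0.158), and the antisense model Gm9747 covers 30.9% of its exon bases. Of 22 genes of insulin signalling and FoxO targets, 19 were tested. Of the 19, 3 were higher in both arms (15.8%, against 28.9% over all genes) and 10 lower in both (52.6%, against 27.3%). Their median log2 fold change was -0.32, and -0.07 with the length offset.

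Sdpr, Strip2, Syne1 and Slit2 also fell. Sdpr, a cavin that shapes caveolae, was at 30.23 and 8.58 TPM in the DsRed arm and at 93.3 and 31.7 TPM in the FoxO6 arm, a step of -1.48 ± 0.28 (adjusted p = 0.0221). Strip2, a subunit of the STRIPAK phosphatase and kinase complex, was at 8.52 and 2.44 TPM in the DsRed arm and at 81.68 and 24.96 TPM in the FoxO6 arm, a step of -1.65 ± 0.30 (adjusted p = 0.019). Both were far higher in the FoxO6 arm on each day, so their days overlapped across arms.

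Syne1, a nesprin that ties the nucleus to actin, was at 27.39 and 12.18 TPM in the DsRed arm and at 38.97 and 11.3 TPM in the FoxO6 arm, a step of -1.40 ± 0.27 (adjusted p = 0.0224), with days that did not overlap. Slit2, a secreted guidance ligand of Robo receptors, was at 46.06 and 24.09 TPM in the DsRed arm and at 111.72 and 29.78 TPM in the FoxO6 arm, a step of -1.13 ± 0.23 (adjusted p = 0.043). With the length offset Strip2 (-1.37, adjusted p = 0.0544) and Slit2 (-0.86, adjusted p = 0.078) missed the threshold. The genes that fell were long, with a median transcript length of 4402 nt, against 1844 nt for those that rose and 2679 nt over all genes tested. With the length offset, 20 of the 27 higher calls and 7 of the 11 lower calls were kept, and 28 genes were called higher and 8 lower in all.

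Lars2 and Gm26870 passed the test but varied widely over the whole course. Lars2, a mitochondrial leucyl-tRNA synthetase, had a step of -1.38 ± 0.27 (adjusted p = 0.0254), while its counts over the 10 libraries went from 87 to 2560. Gm26870, a long non-coding RNA at the start of the assembled chromosome 9 (chr9:3000282-3038313), had a step of -3.49 ± 0.39 (adjusted p = 0.00032), with counts from 14 to 8776 over the 10 libraries and no steady course in either arm. Lars2 missed the threshold with the length offset, where its log2 fold change was -1.26 (adjusted p = 0.0883).

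Another group of calls lay at genes that share their sequence with another gene, where the counting has to split reads between the members. Gm20388 went from 0 to 88 counts in the DsRed arm and from 0 to 161 in the FoxO6 arm (adjusted p = 3.6e-06), which is at least 84.2-fold higher with a floor of 3 counts over both day 5 libraries. It shares 97.5% of its 50-base stretches with Galnt2, a glycosyltransferase of mucin-type O-glycosylation, which had a step of -1.67 ± 0.26 (adjusted p = 0.00852) on 191 and 110 counts in the DsRed arm and 489 and 84 in the FoxO6 arm. Summed, the pair had 191 and 198 counts in the DsRed arm and 489 and 245 in the FoxO6 arm, a log2 fold change of -0.48 (adjusted p = 0.547). The opposite calls at this locus were therefore lost in the sum.

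At the other shared loci the call was also lost in the sum, while the change that remained varied. Gm20716, which shares 83% of its stretches with Adnp, had a log2 fold change of 2.25 alone (adjusted p = 0.00533) and -0.28 summed (adjusted p = 0.766). Gm20458, which shares 65.5% with Dbndd2, had 3.98 alone (adjusted p = 0.00533) and 1.00 summed (adjusted p = 0.334). Rpl36a-ps2, which shares 100% with Rpl36a, had 3.34 alone (adjusted p = 0.0107) and 0.46 summed (adjusted p = 0.587). Gene for gene, the sums of these 3 loci were thus smaller than the values alone, and that of Gm20716 had the other sign. Gm28437, a nuclear copy that shares 100% with mt-Co3, had 3.07 alone (adjusted p = 0.0186) and 0.45 summed (adjusted p = 0.585). With the length offset Rpl36a-ps2 (2.81, adjusted p = 0.104) and Gm28437 (2.64, adjusted p = 0.119) missed the threshold alone. The log2 fold change of mt-Nd3, a subunit of respiratory complex I, was 1.31 alone (adjusted p = 0.0164, and 0.0544 with the length offset) and 0.91 summed (adjusted p = 0.132). That of Gm4070 was -1.31 alone and -0.93 summed with Gvin1 (adjusted p = 0.172). When all such loci were summed, 20 genes were higher and 7 lower in both arms.

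**Figure D5:**
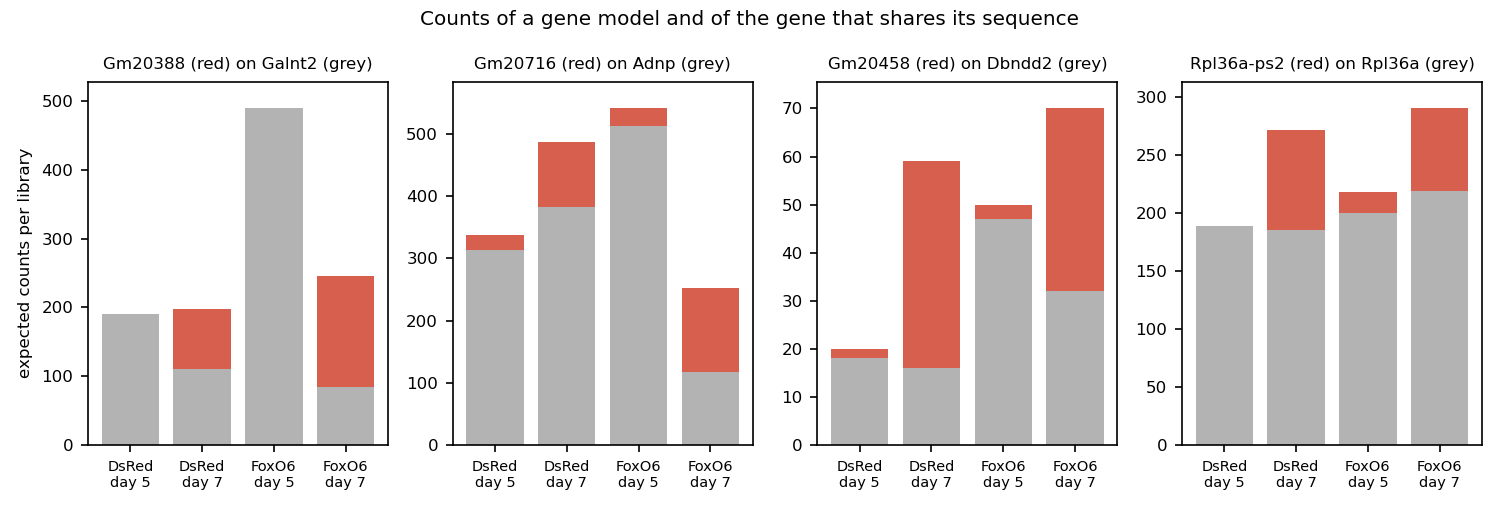
Expected counts per library (vertical axes) on days 5 and 7 of each arm for 4 gene models that passed the threshold (red) stacked on the gene that shares their sequence (grey), so that the full bar is the sum. Gm20388 goes from 0 to 88 and from 0 to 161 alone, while its sum with Galnt2 goes from 191 to 198 and from 489 to 245.

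Among the lists with no call in edgeR's test, the cytosolic ribosomal proteins had the most uniform direction. Of 52 tested, 49 were higher in both arms (94.2%, against 28.9% over all genes) and 3 were opposite. The median log2 fold change was 0.43, with 0.21 in the DsRed arm and 0.65 in the FoxO6 arm. Their transcripts are short, with a median of 769.7 nt, and the median fell to 0.13 with the length offset. The 46 nuclear-encoded respiratory chain genes had a median of 0.29, which was 0.02 with the offset. Genes of S phase and of G2 and mitosis had medians of -0.08 over 48 genes and -0.17 over 54, and Mki67, the proliferation antigen Ki-67, had a log2 fold change of -0.60 (adjusted p = 0.424). Of the 54, 23 were lower in both arms (42.6%, against 27.3% over all genes) and 4 were higher in both (7.41%, against 28.9%). Their median was -0.33 in the DsRed arm and 0.03 in the FoxO6 arm. That of S phase was -0.17 in the DsRed arm and 0.02 in the FoxO6 arm, so neither median fell in both arms. Among the stress lists, 16 heat shock genes had a median of 0.21, 33 genes of the integrated stress response one of 0.06, 28 targets of p53 one of -0.11 and 20 endoplasmic reticulum chaperones one of -0.02, and 15 of those 20 chaperones were opposite between the arms.

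The step was set beside the equally long step from day 1 to day 3, with all 10 libraries in an additive fit of arm and day. Of 12139 genes tested, 2 had a positive difference between the steps (0.0165%) and 5 a negative one (0.0412%) at an adjusted p under 0.05. Bgn, a proteoglycan of fibroblast matrix, stepped by 0.28 on the log2 scale from day 5 to day 7 and by -2.78 from day 1 to day 3 (adjusted p = 0.0173), and Col1a1, the main chain of type I collagen, by 0.41 and -1.93 (adjusted p = 0.0414). Igtp, an interferon-inducible GTPase, stepped by -0.52 late and by 5.81 early (adjusted p = 0.0215). None of the 39 genes of the late step passed this test of the difference, with 1231 genes at an unadjusted p under 0.05 overall. In the same fit, 100 genes were higher and 54 lower over the step from day 1 to day 3, and none was past the threshold in either direction over the step from day 5 to day 7 in edgeR, where the smallest adjusted p was 0.232 and 986 genes had an unadjusted p under 0.05. The calls listed above therefore rest on the fit to the 4 libraries alone.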

How the data were processed

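Reads from the libraries were aligned and quantified by the authors with RSEM and Bowtie2 against mm10 and GENCODE M13, whose tool versions are not given in the sources used here. The labels name the VAHTS mRNA-seq V3 kit and the study's methods another kit. The deposited expected counts are RSEM estimates per gene without normalization, and the deposited TPM values come from the same estimates scaled by effective length. The authors' transcript lengths per gene were taken from the same files.

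Expected counts were rounded and fitted with edgeR 4.0.16 in R 4.3.3 (TMM, filterByExpr by day, arm as a block, quasi-likelihood test, Benjamini-Hochberg adjusted p under 0.05). The common dispersion was 0.0323, with 1 residual degree of freedom per gene moderated by 16.3 prior ones. The filter asked for enough counts in at least 2 libraries, so a gene could enter through its higher day alone. Mylpf, Sprr2b, Gm20388 and Gm20458 entered only through day 7. The SE given with a step was the size of the log2 fold change divided by the square root of the F statistic of edgeR's test. It is not a spread of replicates. A call was common when both arms moved the same way on log2 CPM (prior count of 2). The length offset was a lowess curve with span 0.3. Sums joined genes sharing at least 50% of exon bases on a strand or, for genes past the threshold, of 50-base transcript stretches. DESeq2 1.42.0 and limma 3.58.1 were alternatives. The code of the 4-library fit and of the length curve was also run on simulated counts, and no result here rests on those. Positions come from GENCODE M21 (GRCm38), and 24 of the 39 genes had an entry among the RefSeq promoters. Named were the transduced factors, list members with the smallest p or a needed role, and the 12 largest changes each way with at least 20 counts in the higher day of each arm. The other genes past the threshold, and those outside the lists, were named after their values were seen. The gene groups, lists and tests were chosen with earlier results of these data known. Python 3.11.15 with pandas 2.3.3 and matplotlib 3.10.9 handled tables and plots.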

Additional observations from a re-analysis of the deposited data

Results flagged for a closer look

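A few quantities moved in opposite directions in the arms over the step, and the difference between the arms was not tested for any of them. Gm10925, a nuclear copy that shares 100% of its 50-base stretches with mt-Atp6, had a difference of -1.08 in log2 CPM between day 7 and day 5 in the OKS + DsRed arm and of 10.2 in the OKS + FoxO6 arm, and summed with mt-Atp6 its adjusted p was 0.739. Pou5f1 had 0.151 in the DsRed arm and -0.141 in the FoxO6 arm. The median over the interferon gamma and antigen presentation genes was -0.449 in the DsRed arm and 0.163 in the FoxO6 arm. The median over the endoplasmic reticulum chaperones was -0.183 in the DsRed arm and 0.154 in the FoxO6 arm.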

How the results depend on the processing

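Of the 39 genes past the threshold, all 39 kept the call under RLE size factors, upper quartile factors, library totals, no low-count filter and a minimum of 50 summed counts, 38 under limma-trend, 28 with the length offset and 13 under DESeq2, which gave 15 no adjusted p. Against 27 genes higher and 11 lower, the counts were 9 and 4 in DESeq2, 51 and 43 with RLE size factors, 55 and 27 with upper quartile factors, 41 and 29 with library totals, 76 and 72 without the low-count filter and 6 and 2 at an adjusted p under 0.01. Without the arm block edgeR called 0 and 0 (85 and 113 at an unadjusted p under 0.05), and with all 10 libraries 0 and 0 (454 and 522 unadjusted). Summing genes that share sequence, an alternative chosen after seeing the data, gave 20 and 7, and the calls of gene Sprr2b (adjusted p = 0.0608), gene Irs1 (0.0508) and gene Slit2 (0.057) were lost as well. Leaving out each library could not be fitted within the 4 libraries, since the 3 that remain leave no residual degrees of freedom, and in the 10-library fit it gave between 0 and 8 higher and between 0 and 26 lower, with 8 and 26 without DsRed day 7, 2 and 1 without FoxO6 day 7 and 0 and 0 without either day 5 library. The lone library left in such a fit is assumed to vary like the others. The untested 2-fold counts of 62 and 42 became 25 and 21 with at least 30 counts, and the lower count became 90 with log2(TPM + 1) and 133 with log2(TPM + 0.1). Signs reversed for Gm10925 without FoxO6 day 7 (-0.90), for Gm20388 (-0.48) and Gm20716 (-0.28) when summed, and for gene Pou5f1, whose value near 0 was -0.0047 in DESeq2 and with RLE, -0.021 with library totals, -0.00141 without the filter, -0.032 without the arm block, -0.011 with all 10 libraries, -0.19 with the length offset and between -0.277 and 0.284 with a library left out. The causes were not tested. No paired analysis was possible because each arm and day has 1 library and no replicate number pairs them beyond the arm block. How far depth limits the calls was not tested.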
